A study of Mus musculus with 8 samples.

Results

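The 10 Polycomb genes Ezh1, Ezh2, Eed, Suz12, Jarid2, Bmi1, Ring1, Rnf2, Cbx7 and Asxl1 were followed in the transcriptomes of mouse multipotent progenitors (MPPs) that do or do not express the NUP98-HOXA10hd fusion. They were chosen by name as subunits of the Polycomb complexes, with no threshold on a measured value. All 10 were found among the 37980 gene rows of the expression table, and all 10 passed the low-value filter, which asked for 10 or more normalised counts in 4 or more of the 8 libraries.

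MPPs are bone marrow progenitors that can form all blood lineages, and the comparison asks which transcripts differ when they carry the fusion (NA), a joint protein of nucleoporin NUP98 sequence and the HOXA10 homeodomain. In NA mice the fusion is expressed from the Rosa26 locus after a loxP-stop-loxP cassette (LSL) is removed by Vav-Cre, a recombinase active in blood cells, so the genotype is NA LSL/+; Vav-Cre. Each of 4 NA MPP and 4 wild-type (WT) MPP libraries, all of strain C57BL/6, was made from 1000 bone marrow cells sorted as lineage-negative, CD48-, ckit+, Sca1+, CD135+ and CD150-, and each library carries its group and number as its name (NA1 to NA4, WT1 to WT4). The labels give no age, no sex, no Cre status for WT and no number of animals per library, so the p-values measure the spread between these libraries, which may be technical.

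Polycomb proteins keep developmental genes silent through chemical marks on histones. Polycomb repressive complex 2 (PRC2) methylates histone H3 through Ezh2 or its paralog Ezh1, which work only together with Eed and Suz12, and Jarid2 helps to bring the complex to DNA. Polycomb repressive complex 1 (PRC1) attaches ubiquitin to histone H2A through the E3 ligases Rnf2 (Ring1b) or Ring1, paired with a Pcgf protein such as Bmi1, while Cbx7 reads the mark left by PRC2. Asxl1 is the cofactor of Bap1 in PR-DUB, the deubiquitinase that removes the PRC1 mark. In blood, Bmi1 is known for sustaining self-renewal of stem cells, and Ezh2 and Asxl1 are recurrently mutated in myeloid disease.

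In NA MPPs the transcripts of the PRC1 genes Bmi1 and Rnf2 were more abundant than in WT MPPs, by 1.57-fold and 1.39-fold of the group means. None of the other 8 genes passed the test, and none of the 10 was called lower. The 4 core genes of PRC2 (Ezh1, Ezh2, Eed and Suz12) overlapped between the groups. The 2 calls depended on the libraries that were used. With NA4 and WT4 both left out, no Polycomb gene was called, beside 4.63% of all tested genes. Over 22 alternative analyses, Bmi1 passed in 20 and Rnf2 in 9. With all 8 libraries, 2 of 10 tested were called, against 17.9% of the 11451 genes tested in all. Both were higher, where 10.1% of all genes were called higher and 7.87% lower. The median log2 fold change of the 10 genes was 0.07, beside -0.01 over all tested genes, and 5 of the 10 values were above 0. A share of 20% called is near that of all genes.

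Changes are differences of mean log2(normalised count + 1), NA MPP minus WT MPP, tested with limma and adjusted by the Benjamini-Hochberg method over all tested genes with a threshold of 0.05. A normalised count is an estimated read count divided by the size factor of its library. In bulk libraries, fewer cells of a type and less RNA per cell cannot be told apart.

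Some properties of the libraries moved with genotype or set libraries apart. Estimated depth was 3876910 to 4916990 reads, with NA4, WT2 and WT3 shallower than the other 5. When each library was rebuilt as a weighted sum of the other 3 of its group, NA4 and WT4 left less variance beyond counting error (0.00773 and 0.00253) than the least an independent library would leave (0.00909 and 0.00897). The other 6 libraries left more than that limit. For WT1, WT2 and WT3 this does not show independence, because their limits were only 0, 0.0002739 and 0.0002625. Their sums also rested mostly on WT4 (weights 0.983, 0.905 and 0.913). Because NA4 and WT4 lay below their limits, each call is also given without them. Xist stood at 1.92 ± 1.001 (SD, n = 4) in NA and 1104 ± 173 in WT, with Eif2s3y at 604 ± 70.8 and 0.222 ± 0.444. Sex and genotype therefore cannot be told apart, also for the 10 Polycomb genes, which all lie on autosomes. The 10 immediate early genes examined summed to 37828-44352 normalised counts in NA and 3777-13970 in WT, with 8 of 10 called higher. The summed G2 and M phase genes stood at 1185-1245 in NA and 804-1039 in WT, with 2 of 12 called higher. Sort markers (Kit, Ly6a, Flt3, Cd34 and Ptprc) were present at 8994-9832 in NA and 9640-9981 in WT, with Ly6a called lower. Summed erythroid markers stood at 42.5-69.6 in NA and 161-303 in WT, with the only tested one of 6 called lower, and granulocyte-monocyte markers at 1383-1696 and 1744-2545, with 2 of 3 tested of 6 called lower and Elane at 0. The gate-excluded markers Cd48 and Slamf1 summed to 25.9-60.2 in NA and 52.4-114 in WT, with Cd48 called lower. Megakaryocyte, B lymphoid (Igll1 and Pax5 at 0), mast cell (Mcpt8 at 0) and S phase sums overlapped between the groups. The sums of 5 T and NK markers did not, at 146-161 in NA and 120-145 in WT, with Cd3e, Cd3g and Cd8a at 0. The part of these differences in the results on Polycomb genes was not tested.

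**Figure D1:**
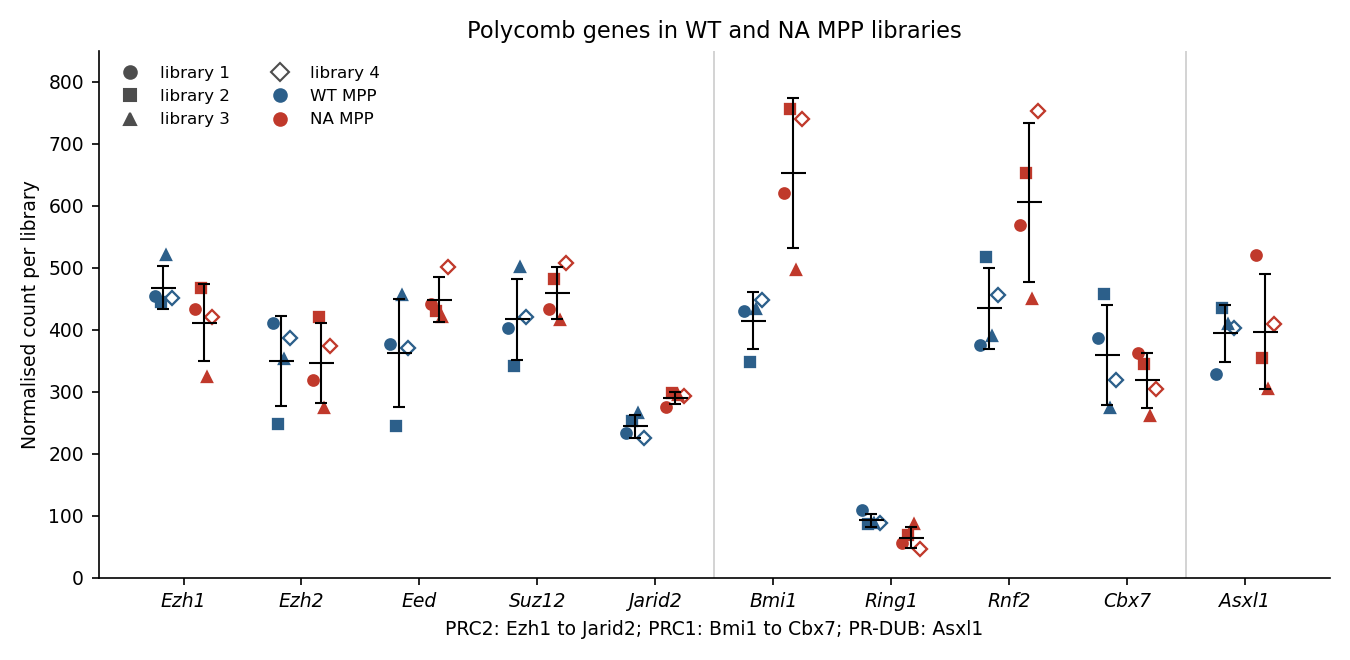
Normalised counts of the 10 Polycomb genes (y axis, linear from 0) in each WT MPP (blue) and NA MPP (red) library; marker shape gives the library number, open diamonds are NA4 and WT4, and black lines are the mean ± SD (n = 4). For Bmi1 all 4 NA libraries (497-756) lay above all 4 WT libraries (348-448), whereas for Ezh2 the groups covered much the same range.

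Within PRC2, Ezh2 (ENSMUSG00000029687, chr6:47530139-47595341, minus strand; all positions are mm10, from GENCODE M21) encodes the main methyltransferase of dividing cells. It read 318, 421, 273 and 374 normalised counts in NA1 to NA4 and 411, 248, 353 and 387 in WT1 to WT4. The groups overlapped throughout, with the lowest value in WT2. The log2 fold change was -0.01 (SE 0.168, 95% interval -0.37 to 0.36; adjusted p = 0.987). The difference was -0.26 among the 5 deeper libraries and 0.34 between NA4 and the 2 shallower WT libraries, and its sign also turned when single libraries were left out.

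Ezh1 (ENSMUSG00000006920, chr11:101191115-101226463, minus strand), the paralog with weaker catalytic activity that is kept in resting cells, read 433, 468, 323 and 420.5 in NA and 455, 445, 520.3 and 452 in WT. NA3 was the lowest library and WT3 the highest, and NA2 lay within the WT range. A change of -0.20 on the log2 scale did not pass the test (SE 0.123, interval -0.46 to 0.07; adjusted p = 0.285), and it was -0.09 without NA3. Per kilobase of the longest transcript, the ratio of Ezh2 to Ezh1 was 1.27 ± 0.114 (SD, n = 4) in NA and 1.13 ± 0.243 in WT, with overlapping ranges of 1.11-1.36 and 0.841-1.37.

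Eed (ENSMUSG00000030619, chr7:89954654-89980983, minus strand) encodes the subunit that binds the methylated histone and stimulates the enzyme. It read 442, 429.6, 421 and 502 in NA and 377, 245, 455 and 370.2 in WT. All NA values exceeded 3 of the WT values, and WT3 lay inside the NA range. On the log2 scale the difference was 0.34 (SE 0.158, interval 0.0020 to 0.68), with an unadjusted p = 0.0488 and an adjusted p = 0.152 in limma. Of all 11451 tested genes, 3716 had an unadjusted p under 0.05 in limma. Without WT2, the lowest library, the difference of Eed was 0.16 (adjusted p = 0.375).

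Suz12 (ENSMUSG00000017548, chr11:79993106-80034123, plus strand), the scaffold of PRC2, read 433, 481, 416 and 508 in NA and 403, 342, 501 and 421 in WT. The groups overlapped, and the difference of 0.15 on the log2 scale did not pass (SE 0.124, interval -0.12 to 0.42; adjusted p = 0.430). It was 0.06 without WT2, 0.24 without WT3 and 0.0065 with the trend on GC content removed. The intervals give the changes that the limma fit allows for these 4 core genes, and a missed threshold does not show equal levels.

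Jarid2 (ENSMUSG00000038518, chr13:44729474-44921643, plus strand) helps PRC2 to find its targets and had the smallest standard error of the 10 genes. It read 275, 298, 295 and 293 in NA and 233, 254, 265 and 226 in WT. All 4 NA libraries lay above all 4 WT libraries, as for 11.5% of all tested genes, with a further 10.5% that did not overlap in the other direction and 22% in all. Its change of 0.25 on the log2 scale (SE 0.113, interval 0.0062 to 0.49) had an unadjusted p = 0.0451 and did not pass after adjustment (limma adjusted p = 0.145). Jarid2 was thus also among the 3716 of 11451 genes with an unadjusted p under 0.05. Jarid2 and Bmi1 were the only Polycomb genes of the 10 whose groups did not overlap.

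Among the PRC1 genes, Bmi1 (Pcgf4, ENSMUSG00000026739, chr2:18677018-18686629, plus strand) showed the largest change of the 10. It read 619.8, 756, 497 and 741 normalised counts in NA, a mean of 653 ± 121 (SD, n = 4). In WT it read 429.7, 348, 434 and 448, a mean of 415 ± 45.5. Every NA library exceeded every WT library, and NA3 came nearest to WT. The log2 fold change was 0.64 (SE 0.137, interval 0.35 to 0.93; limma adjusted p = 0.00582). Leaving out any single library kept the call, with adjusted p between 0.00115 and 0.0285. The difference was 0.49 among the deeper libraries and 0.93 between NA4 alone and the 2 shallower WT libraries. Without NA4 and WT4 the log2 fold change was 0.61 and the adjusted p 0.0554, where 4.63% of all genes were called. In the 5 deeper libraries alone it was 0.49 with an adjusted p of 0.141.

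Rnf2 (ENSMUSG00000026484, chr1:151458004-151500955, minus strand), the main E3 ligase of PRC1, read 568, 652, 449.6 and 752 in NA, a mean of 606 ± 128. In WT it read 376, 518, 391 and 456, a mean of 435 ± 65.3. NA1, NA2 and NA4 exceeded every WT library, whereas NA3 lay below WT2 and WT4. The log2 fold change was 0.46 (SE 0.151, interval 0.14 to 0.79) and the limma adjusted p, 0.0472, lay just under the threshold. Single omissions that lost the call were those of NA1 (adjusted p = 0.0606), of NA2 (0.115), of NA4 (0.163), of WT1 (0.114), of WT3 (0.109) and of WT4 (0.0786). It was also lost without NA4 and WT4, at a log2 fold change of 0.38 and an adjusted p of 0.242, and in the deeper libraries alone (adjusted p = 0.216). With all libraries in, removal of the trend on GC content brought the change to 0.28 (adjusted p = 0.158), and the call was lost with no filter (0.12), with scaling to totals (0.0719) and without the variance trend (0.13). Rnf2 shares 158 bases with Trmt1l on the opposite strand, and strand use in the counting is not given in the sources used here. Trmt1l itself stood at 196 in NA and 241 in WT (adjusted p = 0.143).

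Ring1 (ENSMUSG00000024325, chr17:34020792-34024680, minus strand), the paralog of Rnf2, had the opposite sign. It read 56.0, 68.6, 86.8 and 47.2 in NA and 109, 86.1, 87.7 and 87.9 in WT. NA3 lay inside the WT range and the other NA libraries below it. NA minus WT was -0.54 on the log2 scale (SE 0.222, interval -1.02 to -0.07), with an unadjusted p = 0.0280 and a limma adjusted p = 0.105. Ring1 too was among the 3716 of 11451 genes with an unadjusted p under 0.05. With NA3 left out its change passed, at -0.69 and an adjusted p of 0.0396. Per kilobase, the ratio of Rnf2 to Ring1 was 8.09, 7.58, 4.13 and 12.7 in NA and 2.74, 4.79, 3.55 and 4.14 in WT. NA3 alone fell inside the WT range, and the difference in this ratio was not tested.

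Cbx7 (ENSMUSG00000053411, chr15:79915807-79971119, minus strand), the chromobox reader, read 362, 345, 261 and 305 in NA and 387, 458, 273 and 319 in WT. The groups overlapped, and the log2 fold change of -0.16 did not pass (SE 0.159, interval -0.50 to 0.18; adjusted p = 0.527). It was -0.03 without WT2 or with the GC trend removed, -0.07 without NA3 and -0.28 without WT3.

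Asxl1 (ENSMUSG00000042548, chr2:153345829-153404007, plus strand) read 521, 354, 304 and 409 in NA and 329, 435, 409.9 and 402 in WT. The NA libraries enclosed the whole WT range, so that NA1 was the highest and NA3 the lowest of the 8. The log2 fold change was -0.01 (SE 0.153, interval -0.34 to 0.32; adjusted p = 0.971). NA3 was the lowest NA library for Ezh1, Ezh2, Eed, Suz12, Bmi1, Rnf2, Cbx7 and Asxl1, and the highest for Ring1.

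The sequences before the start sites of Bmi1 and Rnf2, the PRC1 genes that were called, and of Ring1, which had the opposite sign, are shown because Rnf2 and Ring1 can take each other's place in PRC1. The 250 bases before each RefSeq start (GRCm38.p6) are printed in the direction of the gene, for Bmi1 at chr2:18676768-18677017 (plus strand), for Rnf2 at chr1:151500992-151501241 (minus strand) and for Ring1 at chr17:34024681-34024930 (minus strand). Capitals mark matches, on either strand and with overlapping matches merged, to GGGCGG (the core of SP factor sites) and, in Bmi1, to the E-box CACGTG.
Bmi1: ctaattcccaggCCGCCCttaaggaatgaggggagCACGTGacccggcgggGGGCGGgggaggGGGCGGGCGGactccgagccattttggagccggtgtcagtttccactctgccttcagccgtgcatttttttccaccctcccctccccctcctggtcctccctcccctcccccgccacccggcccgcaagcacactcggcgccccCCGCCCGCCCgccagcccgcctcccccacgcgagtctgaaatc
Rnf2: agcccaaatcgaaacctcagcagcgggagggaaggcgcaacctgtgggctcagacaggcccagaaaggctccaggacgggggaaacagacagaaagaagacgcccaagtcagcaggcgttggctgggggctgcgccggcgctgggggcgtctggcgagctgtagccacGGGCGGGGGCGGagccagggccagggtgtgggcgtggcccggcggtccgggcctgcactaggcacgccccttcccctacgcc
Ring1: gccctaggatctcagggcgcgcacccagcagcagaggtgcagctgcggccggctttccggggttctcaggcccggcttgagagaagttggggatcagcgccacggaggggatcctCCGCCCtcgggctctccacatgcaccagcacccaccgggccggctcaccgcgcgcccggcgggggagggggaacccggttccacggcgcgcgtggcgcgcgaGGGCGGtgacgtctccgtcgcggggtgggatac
All 3 stretches hold GGGCGG or its reverse complement, and the E-box is found in Bmi1 alone of the 3. Matches to the SP core were thus found before the called genes and before Ring1 alike.

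Over windows of 300 bases, 250 before and 50 after each start, the 10 genes had 11 RefSeq promoters, with 2 for Jarid2. Their CG dinucleotides numbered from 13 in Asxl1 to 41 in Suz12, where the median of 32851 promoters was 7 and 37.9% held at least 13. GGGCGG lay in 8 of the 11 windows and in 35.7% of all promoters. CCAAT, the core of NFY sites, lay in 6 of 11 (Cbx7, Eed, Ezh2, Suz12 and both of Jarid2) and in 37.4% of all. TGACAG, the core of MEIS sites, was found in Ezh1, Ezh2 and 1 window of Jarid2, and in 19.2% of all. The E-box CACGTG, in Bmi1 only, was found in 7.15% of all promoters. TTCCCGCC and TTTGGCGC, forms of the E2F site, lay in Asxl1 and Ezh2, and in 2.19% and 0.514% of all. The HOX cores TTTATGG and TTTATTG, the AP-1 site TGACTCA and the CRE TGACGTCA were in none of the 11 windows, and in 2.75%, 4.6%, 5.2% and 1.79% of all promoters. Such matches are letters in a window and not measured sites.

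Levels per kilobase of the longest transcript, over all 8 libraries, ran from Eed at 196 ± 37.4 (SD, n = 8) normalised counts per kilobase to Ring1 at 30.8 ± 7.87. Rnf2 (162.6 ± 41.0), Bmi1 (148.6 ± 42.5), Ezh2 (125 ± 22.7), Ezh1 (104.5 ± 13.2) and Suz12 (100.2 ± 12.8) followed Eed, and each overlapped its neighbour in this order over the 8 libraries. Asxl1 (56.7 ± 9.71) and Cbx7 (55.9 ± 10.6) stood below Suz12 without overlap. Jarid2 (32.0 ± 3.35) and Ring1 stood below Cbx7, again without overlap. By genotype some neighbours changed places, as Ezh2 stood above Bmi1 in WT (126 ± 25.8 and 115 ± 12.7) and Suz12 above Ezh1 in NA (105 ± 9.67 and 97.8 ± 14.8). Of the ligases of PRC1, Rnf2 stood near the top and Ring1 near the bottom in both genotypes, with Rnf2 at 189 ± 40.1 and Ring1 at 25.3 ± 6.73 in NA, and 136 ± 20.4 and 36.3 ± 4.32 in WT. Gene-level values do not show which transcript was expressed, and it need not be the longest. The order between genes, and the ratios and shares per kilobase, therefore depend on the length used.

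**Figure D2:**
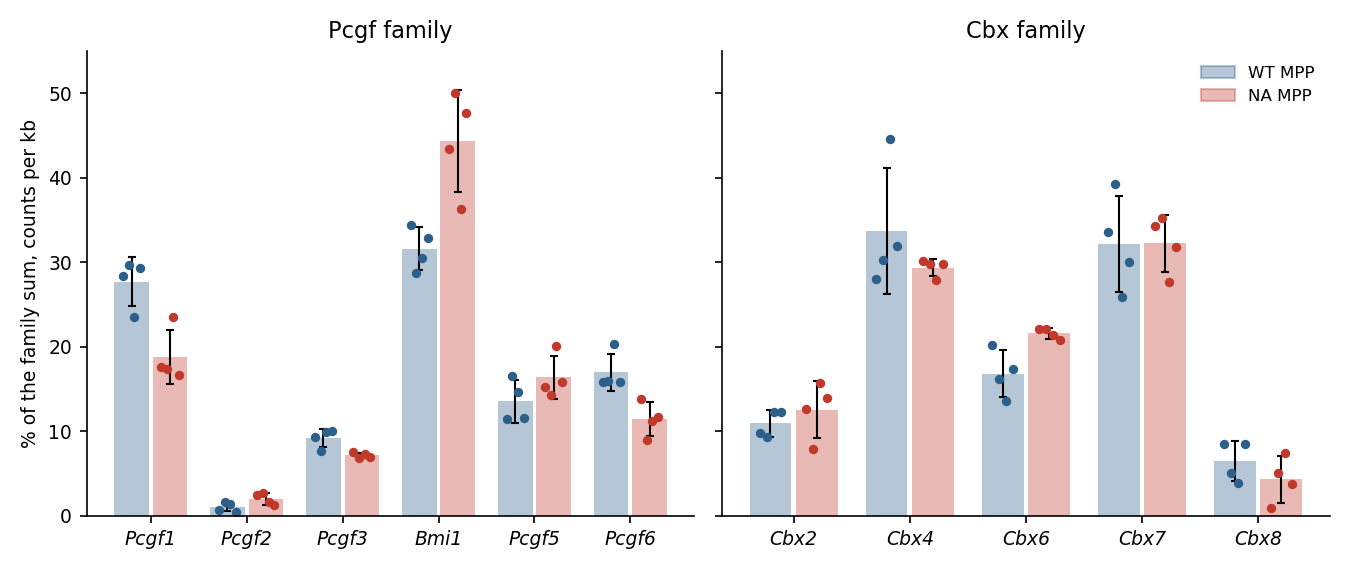
Share of each paralog in the summed normalised counts per kilobase of the Pcgf family (left) and the canonical Cbx family (right), in percent, with bars at the mean of WT MPP (blue) and NA MPP (red), error bars of 1 SD (n = 4) and a point per library. Bmi1 made up 36.2-50.02% of the Pcgf sum in NA and 28.7-34.4% in WT, while the Cbx7 share was about the same in both groups.

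Each PRC1 complex holds a single Pcgf protein, and Pcgf2 and Bmi1 form the canonical complexes that contain Cbx proteins. Bmi1 accounted for 44.3 ± 6.05% (SD, n = 4) of the Pcgf transcripts per kilobase in NA and 31.6 ± 2.53% in WT, without overlap of the libraries. The shares of Pcgf6 (11.4 ± 2.01% and 16.9 ± 2.22%) and Pcgf3 (7.16 ± 0.296% and 9.24 ± 1.07%), both of variant complexes, were lower in NA without overlap. Shares of a sum are bound to each other, so a higher share of Bmi1 lowers the rest, and the differences between shares were not tested. Pcgf1 stood at 18.8 ± 3.16% in NA and 27.7 ± 2.87% in WT, Pcgf5 at 16.4 ± 2.59% and 13.5 ± 2.49%, and Pcgf2 at 2.005 ± 0.692% and 1.05 ± 0.543%, with overlap for each. Within the Cbx family, Cbx7 held 32.2 ± 3.38% in NA and 32.2 ± 5.70% in WT. Only the share of Cbx6 did not overlap there, at 21.6 ± 0.650% in NA and 16.8 ± 2.75% in WT.

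The other subunits of these complexes and the enzymes that act against them were examined through a list of 46 genes, of which 44 were tested. Of these, 5 were called higher and 1 lower, or 13.6% against 17.9% of all tested genes. Their median log2 fold change was -0.06, and 4 genes were higher and 5 lower without overlap of the groups, where 11.5% and 10.5% of all tested genes were. By role, 1 of 9 PRC2 partners, 1 of 5 Pcgf paralogs, 1 of 10 variant PRC1 subunits, 1 of 9 PR-DUB partners and 1 of 2 demethylases were called higher. Of the PR-DUB partners 1 was called lower, and none of 4 Cbx paralogs or 5 Phc and SAM-domain subunits was called in either direction. When libraries were scaled to their totals, the list gave 3 higher and 5 lower genes and all tested genes 925 higher and 1314 lower, beside 1152 higher and 901 lower as reported.

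**Figure D3:**
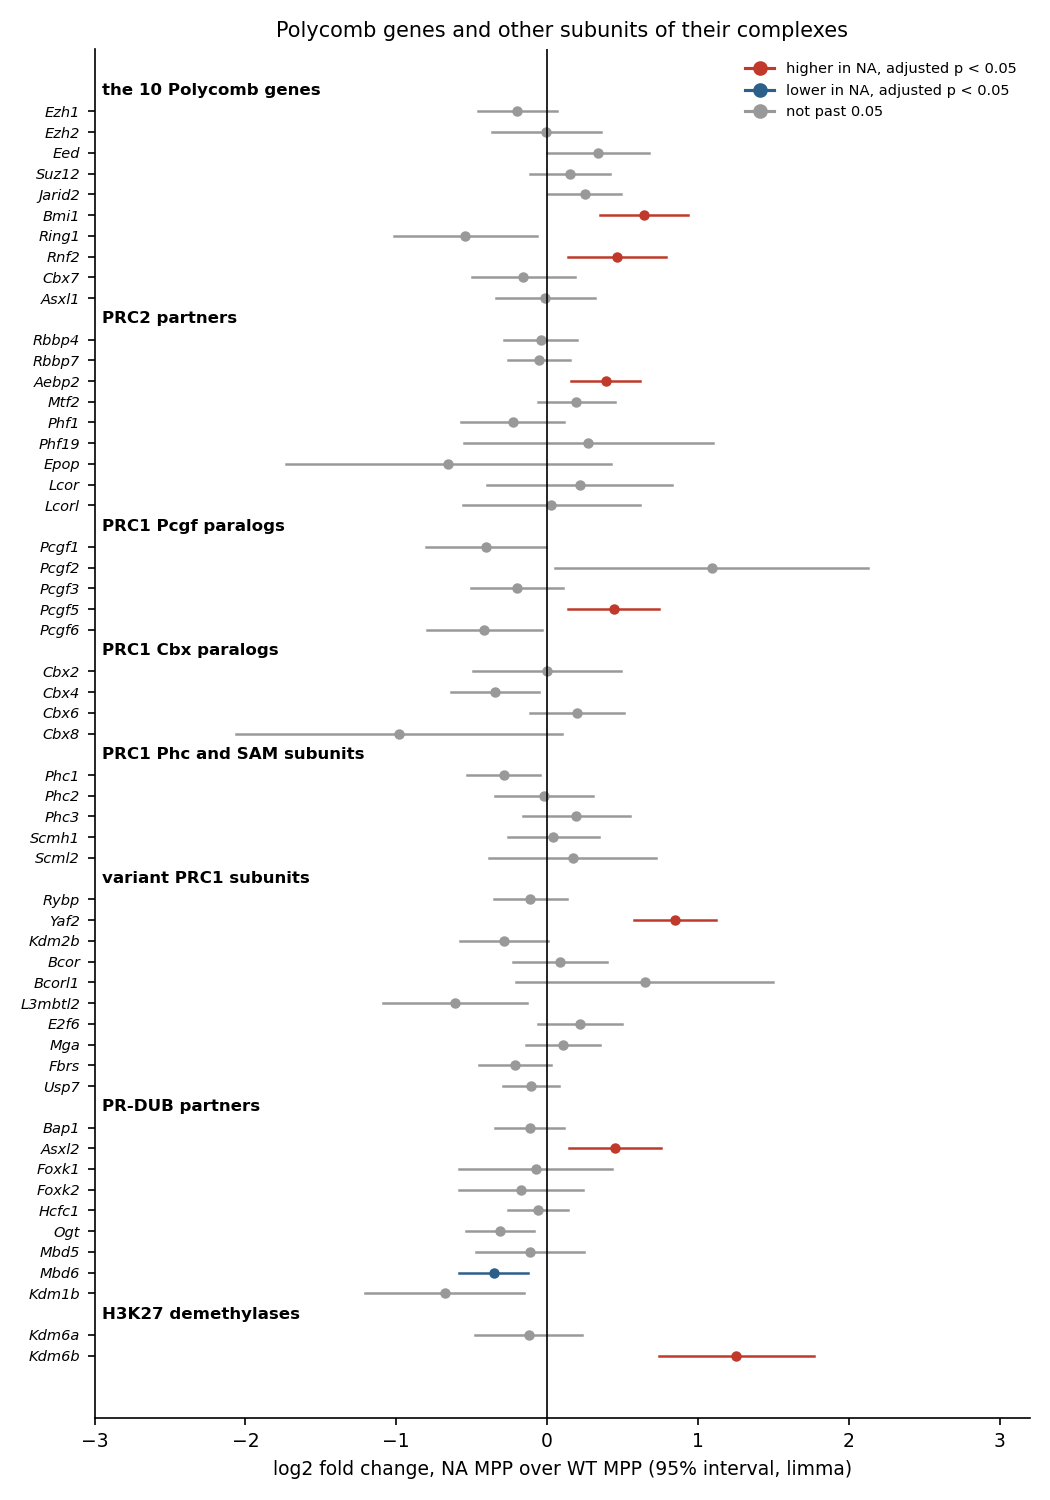
Log2 fold change, NA MPP over WT MPP (x axis), with its 95% interval from limma for the 10 Polycomb genes and the 44 tested genes of the wider list, by role; red marks genes called higher in NA, blue lower, and grey those not past an adjusted p of 0.05. Kdm6b (1.26) and Yaf2 (0.85) lie farthest to the right among the genes called, and Mbd6 (-0.35) is the gene called lower.

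Kdm6b (Jmjd3), a demethylase that removes the PRC2 mark, had the largest log2 fold change of the 44 tested genes of the list. It read 176, 177, 254 and 162 in NA and 53.3, 128, 75.1 and 74.6 in WT. The groups did not overlap, and the log2 fold change was 1.26 (SE 0.240; limma adjusted p = 0.00295). It ranged from 1.07 to 1.65 over 22 alternative analyses and passed in every one of them, with adjusted p from 0.000449 to 0.0271. Its X-linked paralog Kdm6a stood at 151 ± 28.5 in NA and 162 ± 7.73 in WT, with a log2 fold change of -0.12 that did not pass (adjusted p = 0.645). Kdm6b is known as an inducible gene. Its values and the summed immediate early genes were both highest in NA3 (44352 for the sum) and lowest in WT1 (3777). Between them both ran through NA2, NA1, NA4, WT2, WT3 and WT4. For Kdm6b, NA2, NA1 and NA4 (176.7, 176.4 and 161.8) and WT3 and WT4 (75.1 and 74.6) were too close to rank beyond counting error. The part of the immediate early genes in the Kdm6b result was not tested.

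Yaf2, which takes the place of the Cbx proteins in variant PRC1 as Rybp does, read 420.1, 390.1, 389 and 454 in NA and 244, 185, 256 and 238 in WT. The groups were far apart, with a log2 fold change of 0.85 (SE 0.127; adjusted p = 0.000522) that passed in all 22 alternatives. Rybp read 401 ± 22.3 in NA and 436 ± 59.2 in WT, and its log2 fold change of -0.11 did not pass (adjusted p = 0.532). The difference between these paralogs was not tested.

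The other calls were lost when particular libraries were left out and in some analyses of all 8. Aebp2, a DNA-binding partner of PRC2, read 622, 509, 509 and 574 in NA and 392.4, 473, 395 and 429 in WT, without overlap (log2 fold change 0.39, adjusted p = 0.0236). It did not pass with NA1, NA4, WT1, WT3 or WT4 left out (adjusted p 0.0526 to 0.0751). Pcgf5, of a variant PRC1, read 391, 385, 494 and 441 in NA and 256, 359, 373 and 281 in WT, also without overlap (0.44, adjusted p = 0.0422). It was lost without NA2, NA3, NA4, WT1 or WT4 (0.0513 to 0.126). Asxl2, the paralog of Asxl1, read 263, 321, 352 and 333 in NA and 268, 196, 207 and 262 in WT. Here NA1 lay inside the WT range, and the call (0.45, adjusted p = 0.0424) was lost without NA2, NA3, NA4, WT2, WT3 or WT4 (0.0566 to 0.121). Mbd6, a PR-DUB partner, was the gene called lower, at 329, 340.3, 374 and 346 in NA and 401, 507, 424 and 450.1 in WT (-0.35, adjusted p = 0.0353). The groups did not overlap, but the call was lost without NA1, NA2, NA4, WT2 or WT4 (0.0611 to 0.102). With the GC trend removed, the changes were 0.23 for Aebp2 (adjusted p = 0.178), 0.27 for Pcgf5 (0.249), 0.31 for Asxl2 (0.134) and -0.14 for Mbd6 (0.394). Without the variance trend none of these 4 passed in limma (0.0647, 0.103, 0.0865 and 0.07). Without NA4 and WT4, Yaf2 and Kdm6b alone of the list were called, or 4.65% beside 4.63% of all tested genes.

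The genes with the largest change in each role that did not pass are given as values. For Epop, a PRC2 partner, the log2 fold change was -0.65 (adjusted p = 0.391), and for Cbx8, a chromobox paralog, -0.98 (0.193), or -0.43 without NA1. For Pcgf2 it was 1.09 (0.134), with 24.3, 28.2, 15.7 and 13.0 in NA and 6.21, 13.6, 13.7 and 4.44 in WT. Phc1, a polyhomeotic subunit of PRC1, stood at 293 ± 29.2 in NA and 357 ± 19.2 in WT, without overlap (-0.29, adjusted p = 0.0944). It passed when libraries were scaled to their totals (adjusted p = 0.0415). Bcorl1, an X-linked corepressor of variant PRC1, had a change of 0.65 (0.278). Kdm1b, a demethylase bound to PR-DUB, had one of -0.68 (0.0715), and passed without NA3 (0.0332). Auts2 and Asxl3 did not pass the low-value filter. Auts2, of a variant PRC1, read 14.0, 16.9, 9.23 and 13.0 in NA and 6.21, 2.26, 0 and 5.33 in WT without overlap, and Asxl3 was at 0 in every library.

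**Figure D4:**
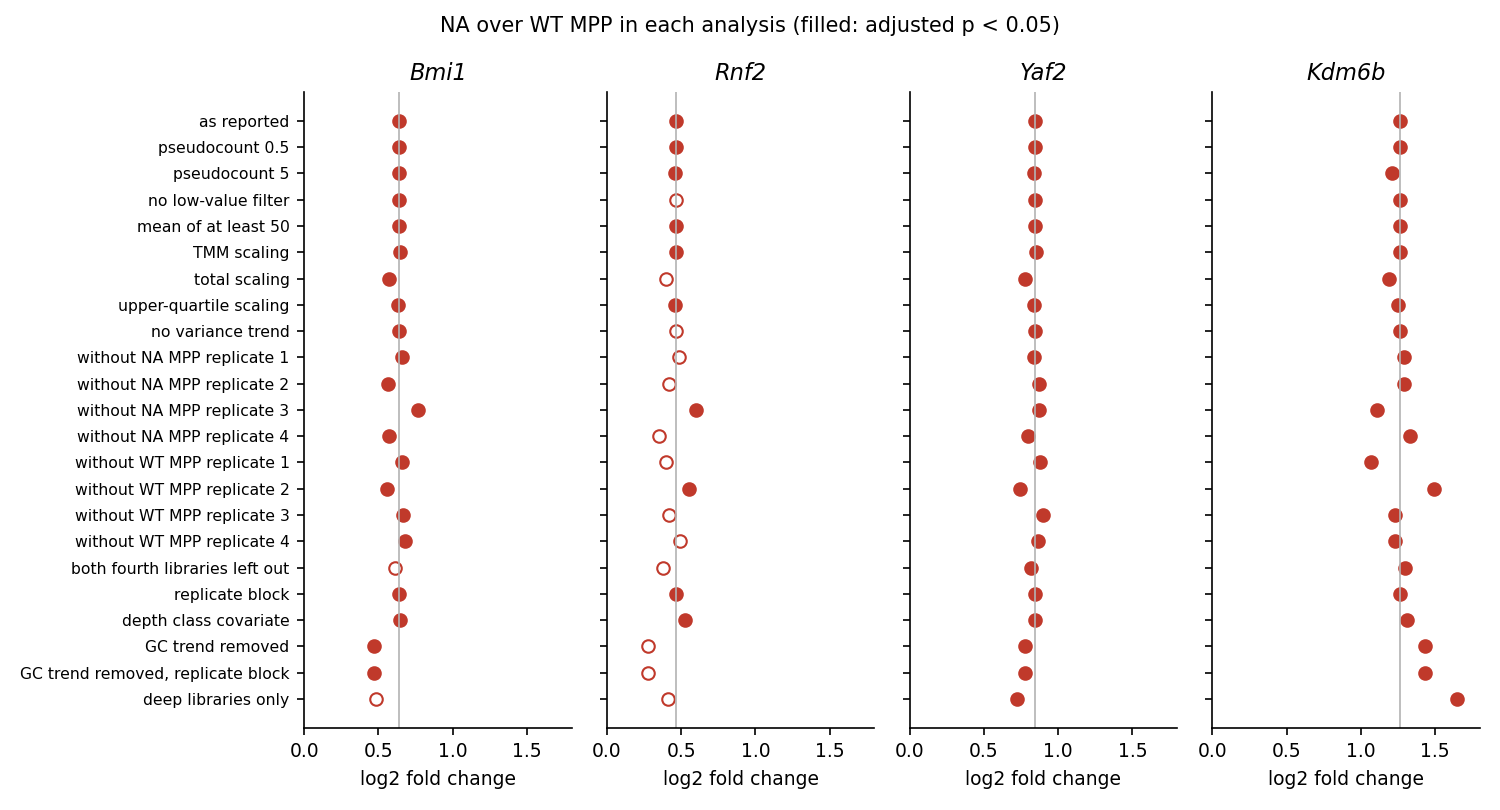
Log2 fold change, NA MPP over WT MPP (x axis), of Bmi1, Rnf2, Yaf2 and Kdm6b as reported (grey line and top row) and in 22 alternative analyses (rows); filled points had an adjusted p under 0.05 in limma. Yaf2 and Kdm6b passed in all 22, Bmi1 in 20 and Rnf2 in 9.

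A list of 12 lineage, fetal and cell cycle inhibitor genes that Polycomb is known to silence was mostly out of reach at this depth. Of these, 5 (Cdkn2a, Pax5, Hand1, Sox17 and Nkx2-5) were at 0 in every library, and 7, these included, never exceeded 3 estimated reads, a floor of 2.66 to 3.54 normalised counts that covers counting error only. A change among these was not detectable. Pax6 was at 0 in all NA libraries and at 0.888, 4.53, 10.2 and 7.99 in WT, which also failed the low-value filter. Hmga2, the only one tested, read 84.0, 95.9, 48.0 and 90.9 in NA and 72.8, 121, 79.7 and 99.4 in WT. The groups overlapped, with a log2 fold change of -0.24 (adjusted p = 0.531).

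The parts of the fusion come from Nup98 and Hoxa10, whose levels were looked at as a check of the labels. Hoxa10 was called higher in NA, whereas Nup98 did not pass. Hoxa10 stood at 324 ± 32.0 (SD, n = 4) in NA and 139 ± 7.997 in WT (1.21, limma adjusted p = 2.57e-05), and Nup98 at 85.0 ± 10.9 and 72.2 ± 12.1 (adjusted p = 0.443). Reads of the fusion and of the endogenous genes cannot be told apart in gene-level values.

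Across the 8 libraries, deviations from the group means followed those of Ezh2 most closely, among 9000 genes with a mean of at least 50, for Tbc1d23 (Pearson r = 0.988), Enpp4 (0.984) and Gucy1a1 (0.983). Those of Bmi1 were followed most closely by Prdm15 (0.986), Fahd1 (0.981) and Gnpnat1 (0.971). These values are a description over 8 libraries that share depth classes and of which NA4 and WT4 were close to sums of the others. They are also the highest of 9000 genes over so few libraries, so a high r does not show that the genes are linked. None of the 6 genes is a Polycomb subunit of the lists used here.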

How the data were processed

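RNA of sorted MPPs was measured in 8 libraries, from amplified cDNA and Nextera XT preparations. The authors quantified genes with RSEM and normalised them with DESeq2 on mm10, per the labels and their methods, with versions and annotation not given in the sources used here. The deposited values are a normalised signal: RSEM's estimated count of each gene over the size factor of its library. Values above 0.5 were multiples of a step of 0.888 to 1.18, the worth of 1 read, in 98.3% to 98.7% of cases per library (tolerance 0.02), and this step gave the depth. Floors in reads cover counting error only, because molecules are not counted after amplification.

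Symbols, positions and transcript lengths came from GENCODE M21 (32916 of 37980 rows named, 93.8% of the 17710 rows above 0), and promoters from RefSeq GRCm38.p6. Groups came from sample titles. The test was that of limma 3.58.1 (R 4.3.3), applied to log2(value + 1) with a mean-variance trend and no covariate, for the 11451 genes with at least 10 in at least 4 libraries, with Benjamini-Hochberg adjustment and a threshold of 0.05. The fit was tested on simulated data. The planned count tests were not run, because the values were already normalised and reads recovered from them were not used for tests. Alternatives changed the pseudocount (0.5 or 5), the filter (none, or a mean of at least 50), the scaling, the variance trend, the libraries used, and blocks for replicate number, depth and GC content (known for 97.5% of tested genes).

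The members and gene lists were chosen with earlier results of these data known. Named genes were all 10 members, every listed subunit past the threshold, the largest change in each role that was not, Hoxa10, Nup98, and the 3 genes most like Ezh2 and Bmi1. Rybp, Trmt1l, Auts2, Hmga2, Pax6, the tests of Pcgf1, Pcgf3 and Pcgf6, and marker genes were named beside them after their values were seen. The counts over the HoxA list are not reported here.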

Additional observations from a re-analysis of the deposited data

Results flagged for a closer look

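In 46 groups of 4 values (the named Polycomb genes in NA and in WT), 4 had 1 library far from the other 3 by Dixon's test, where chance flags about 1 in 20 groups, or 2.3 here. Ezh1 stood at 520.3 normalised counts in WT3, with the other WT libraries at 445.1 to 454.5. Ring1 stood at 109.2 in WT1, with the others at 86.07 to 87.89. Kdm6b stood at 253.9 in NA3, with the others at 161.8 to 176.7. Kdm6a stood at 108.3 in NA1, with the others at 160.6 to 170.1.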

How the results depend on the processing

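Over 22 alternatives, Eed, Suz12, Jarid2, Ezh1, Ring1 and Cbx7 kept their direction, as did Bmi1 and Rnf2. Counts of called genes depended most on NA4 and WT4. All tested genes gave 2053 calls, 1106 to 2141 with single libraries left out (1106 without NA4, 1294 without WT4), 515 without NA4 and WT4 and 599 in the deeper libraries alone, an alternative chosen after seeing the data. The cause was not tested. Of the 10 Polycomb genes 2 were called. This fell to 1 with no filter, with scaling to totals, without the variance trend, with the GC trend removed and with that plus the block. In that order, 8.89%, 19.5%, 12.4%, 17.2% and 15.8% of all tested genes were called, beside 17.9% as reported. With single libraries left out 1 to 3 of the 10 were called, beside 9.79% to 19% of all tested genes. None (0) was called in limma without NA4 and WT4 or in the deeper libraries alone, where 4.63% and 5.49% of all tested genes were. In each, 2 of the 10 were at an unadjusted p under 0.05, as were 2231 of 11117 and 2266 of 10904 tested genes. Of the wider list 6 were called, and 2 to 5 with single libraries left out. Without the variance trend it was 2, or 4.55% of the list beside 12.4% of all tested genes. Without NA4 and WT4 it was 2 (4.65% beside 4.63%), and with the GC trend removed and the block 3 (6.82% beside 15.8%).

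Epop stood at -0.41 without NA2 and Bcorl1 at 0.39 without WT1. Directions that turned were of changes near 0. That of Ezh2 was -0.16 to 0.10 with single libraries left out (0.0292 without NA1, 0.102 without NA3, 0.0805 without WT1, 0.00742 without WT3, 0.0517 without WT4) and 0.00862 without NA4 and WT4. That of Asxl1 was -0.15 to 0.11 with single libraries left out (0.0341 without NA2, 0.108 without NA3, 0.0391 without WT2, 0.0107 without WT3, 0.00159 without WT4), 0.0299 with depth class as a covariate, 0.0365 with the GC trend removed, with or without the block, and 0.0725 in the deeper libraries. Kdm6a ranged from -0.188 to 0.0282 with single libraries left out, the highest without NA1. With the GC trend removed, the change of Bmi1 was 0.47 (adjusted p = 0.00952).

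Deviations of same-numbered libraries had a Pearson r of 0.087, 0.027, 0.013 and 0.158, and those of differently numbered ones -0.094 to 0.101. The highest value was that of NA4 and WT4. The numbers were not taken as pairs. With the replicate number as a block, 2004 genes were called in all, Bmi1 and Rnf2 of the 10, and 6 of the wider list, where Ogt took the place of Asxl2 (adjusted p = 0.0629). The edgeR and DESeq2 alternatives that were planned were not run, since the deposited values are normalised and reads recovered from them were not used for tests.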
